A study of Mus musculus with 6 samples.

Results

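Enzymes and regulators that make cholesterol, fatty acids and the ceramides of the skin barrier were compared between 2 kinds of primary mouse cells. The set holds 48 genes named by function, and a gene counted as measured when at least 1 probe set of the deposited table was paired with its symbol alone. On this rule 45 of the 48 were measured, of 10261 genes in all: 20 of 21 mevalonate and sterol genes, 12 of 12 fatty acid genes, 11 of 12 sphingolipid genes and 2 of 3 epidermal barrier lipid genes. Srebf1, Degs2 and Alox12b were not measured. The arrays were Affymetrix MoGene-1_0-st chips, on which several short probes together report on a transcript, and the values are log2 signals after RMA, a method that corrects background, aligns the arrays and summarises each probe set.

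The labels name 3 arrays keratinocytes and 3 MEFs, numbered as biological replicates, and no treatment was applied to either. Keratinocytes, the main cells of the epidermis, were taken from the back skin of newborns at postnatal day 0 and grown in an Epidermal Keratinocyte Medium. MEFs, mouse embryonic fibroblasts, came from E13.5 embryos without heads and inner organs, pooled before trypsin digestion according to the isolation protocol, and were grown in DMEM with fetal bovine serum. For MEFs the methods name the strain C57BL/6J, whereas the isolation protocol names DR-4, and the strain of the keratinocytes was not given in the sources used here. Medium, age and cell type changed together, so their parts in a difference cannot be told apart, and in bulk RNA fewer cells of a type and less RNA per cell cannot be told apart either.

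The labels ran against the markers. Cdh1, which encodes the epithelial adhesion protein E-cadherin, gave log2 signals of 3.33, 2.16 and 3.26 on the keratinocyte-labelled arrays and of 8.62, 8.59 and 8.73 on the MEF-labelled ones. Vim, which encodes the mesenchymal filament protein vimentin, gave 11.93, 11.97 and 12.03 on the former and 3.81, 3.92 and 3.78 on the latter. The groups did not overlap for either gene, nor for 78.4% of all genes. Of 5 keratinocyte markers (Cdh1, Epcam, Krt5, Krt14 and Trp63) 5 were higher on the MEF-labelled arrays, and of 5 fibroblast markers (Vim, Col1a1, Col1a2, Pdgfra and Pdgfrb) 5 were higher on the keratinocyte-labelled ones. The keratin gene Krt5 was at least 108-fold higher on the MEF-labelled arrays, Krt14 at least 87.8-fold, Epcam at least 7.65-fold, and Col1a1 at least 73.2-fold higher on the keratinocyte-labelled ones. Every direction below is therefore given for the arrays as labelled. None of the markers listed for adipocytes, sebocytes, melanocytes and hepatocytes was measured, so RNA of those cells was not tested; of 4 macrophage markers 2 were measured and went opposite ways, Cd68 at 8.56 ± 0.12 (SD, n = 3) on the MEF-labelled arrays against 4.64 ± 0.32 and Lyz2 at 1.49 ± 0.89 against 5.23 ± 0.47, above background on 1 array.

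Cholesterol is built from acetyl-CoA through mevalonate, isoprenoids, squalene and lanosterol, and most enzymes of the route are switched on together when the protein encoded by Srebf2 leaves the endoplasmic reticulum with its escort Scap, which Insig1 holds back when sterols are plentiful. Fatty acids start from the citrate and malonyl steps of Acly, Acaca and Fasn, and are then lengthened by Elovl enzymes and desaturated by Scd and Fads enzymes. In the epidermis, very long fatty acids are joined to sphingoid bases by ceramide synthases, carried into lamellar granules by Abca12 and oxidised by the lipoxygenases Alox12b and Aloxe3, and the resulting lipid layers keep water in.

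Of the 20 mevalonate and sterol genes measured, 20 were higher on the MEF-labelled arrays, the arrays with high Cdh1 (limma, adjusted p under 0.05, Benjamini-Hochberg over 11288 probe sets). Over all genes 41.7% were higher on those arrays by this test and 32.9% were higher on the keratinocyte-labelled ones. The median log2 difference of the 20 genes, labelled keratinocytes minus labelled MEFs, was -1.32, with a range from -2.12 to -0.36, beside a median of -0.12 over all genes. With the 1 gene that was not above background in a group set to its bound, the median of the list was -1.20, beside -0.12 over 7293 genes treated in the same way. The groups did not overlap for 20 of the 20, compared with 78.4% of all genes, and 13 of the 20 differed by at least 2-fold as measured towards the MEF-labelled arrays, compared with 14.4% of all genes. Background was taken on each array as the 95th percentile over 10 probe sets of olfactory receptors, whose expression in these cells was not tested. It ranged from 5.49 to 5.92 on the keratinocyte-labelled arrays and from 6.05 to 6.58 on the MEF-labelled ones. On MEFs replicates 1 and 3 it lay above the array's median over all probe sets, at 6.53 and 6.58 against 6.25 and 6.31. Of all 10261 genes 2751 were above this level on no array. A gene at or below it on every array of a group has no measured fold, only a lower bound set from that level, and it need not be silent. With such genes at their bounds, 12 of the 20 differed by at least 2-fold towards the MEF-labelled arrays, compared with 9.09% of all genes, and Pmvk did not. Of the 20 genes, 18 were above background on all 6 arrays.

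Promoter windows are shown because these genes moved together. Windows reach from 250 bases before to 50 after a RefSeq start site in GRCm38.p6, and were found for 17 of the 20 genes. They were searched on both strands for the letters CCAAT, the core bound by the factor NF-Y, which works beside SREBP at many sterol genes, and for TCACNCCAC, a form of the sterol regulatory element. CCAAT stood in at least 1 window of 16 of the 17 genes (94.1%), compared with 42.9% of 8225 genes on the arrays that have a window and 41.1% of 27025 genes in the whole table, and 9 of the 17 held 2 or more in 1 window, compared with 16.7% of the 8225. Of the fatty acid genes 5 of 9 with a window held it (55.6%), and of the sphingolipid genes 6 of 11 (54.5%). The sterol element letters stood in 1 of the 17 genes, Hmgcs1, compared with 1.45% of the 8225 genes. Such a match is a description of letters, and a window without one says nothing about the factor. The windows below run 5′ to 3′ on the strand of the gene with matches in capitals, where ATTGG is CCAAT on the opposite strand and the longer run in Hmgcs1 is the sterol element. They are those of Hmgcs1 and Mvk at the head of the route, of Idi1, which had the largest difference of the sterol genes, and of Nsdhl, a later step, followed by the windows of the ceramide synthase genes Cers3 and Cers4, which moved in opposite directions and whose windows hold neither motif. The windows of Mvk, Hmgcs1 and Nsdhl hold 5, 4 and 4 CCAAT matches, the most among the sterol genes, whereas those of Scap hold none.
Hmgcs1 (chr13:119690101-119690400, plus strand): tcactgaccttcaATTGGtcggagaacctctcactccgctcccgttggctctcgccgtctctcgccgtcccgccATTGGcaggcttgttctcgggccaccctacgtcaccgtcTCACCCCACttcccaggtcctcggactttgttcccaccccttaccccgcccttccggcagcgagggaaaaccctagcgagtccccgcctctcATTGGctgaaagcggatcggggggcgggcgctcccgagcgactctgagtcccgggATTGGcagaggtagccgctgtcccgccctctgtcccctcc
Mvk (chr5:114444019-114444318, plus strand): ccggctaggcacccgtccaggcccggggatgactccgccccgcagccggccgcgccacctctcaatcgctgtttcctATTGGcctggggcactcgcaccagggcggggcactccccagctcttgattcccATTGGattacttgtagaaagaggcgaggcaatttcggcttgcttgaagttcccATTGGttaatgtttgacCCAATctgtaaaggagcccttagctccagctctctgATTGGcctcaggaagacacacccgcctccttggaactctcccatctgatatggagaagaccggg
Idi1 (chr13:8885356-8885655, plus strand): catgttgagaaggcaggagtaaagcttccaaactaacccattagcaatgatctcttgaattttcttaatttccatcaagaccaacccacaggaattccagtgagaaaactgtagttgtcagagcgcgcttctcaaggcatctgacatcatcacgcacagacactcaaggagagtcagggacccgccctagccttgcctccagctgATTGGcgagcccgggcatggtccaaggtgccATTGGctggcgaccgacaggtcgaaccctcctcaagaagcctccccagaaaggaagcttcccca
Nsdhl (chrX:72918271-72918570, plus strand): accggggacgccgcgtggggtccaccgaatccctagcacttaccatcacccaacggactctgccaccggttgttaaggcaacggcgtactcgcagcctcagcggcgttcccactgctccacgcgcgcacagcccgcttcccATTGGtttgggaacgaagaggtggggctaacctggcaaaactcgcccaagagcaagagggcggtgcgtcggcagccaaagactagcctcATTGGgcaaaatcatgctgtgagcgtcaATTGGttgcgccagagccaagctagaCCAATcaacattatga
Cers3 (chr7:66743254-66743553, plus strand): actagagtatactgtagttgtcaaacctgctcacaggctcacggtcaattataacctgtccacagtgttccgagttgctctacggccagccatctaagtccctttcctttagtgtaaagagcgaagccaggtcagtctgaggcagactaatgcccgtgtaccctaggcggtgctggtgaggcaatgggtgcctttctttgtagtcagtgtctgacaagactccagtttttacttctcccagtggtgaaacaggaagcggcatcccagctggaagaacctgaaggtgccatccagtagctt
Cers4 (chr8:4493155-4493454, plus strand): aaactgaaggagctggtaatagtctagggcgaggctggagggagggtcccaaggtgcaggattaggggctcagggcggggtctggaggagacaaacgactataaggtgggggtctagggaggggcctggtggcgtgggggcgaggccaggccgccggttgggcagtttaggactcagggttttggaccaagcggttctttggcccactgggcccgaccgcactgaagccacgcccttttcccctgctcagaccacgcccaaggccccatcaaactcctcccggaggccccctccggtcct

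**Figure D1:**
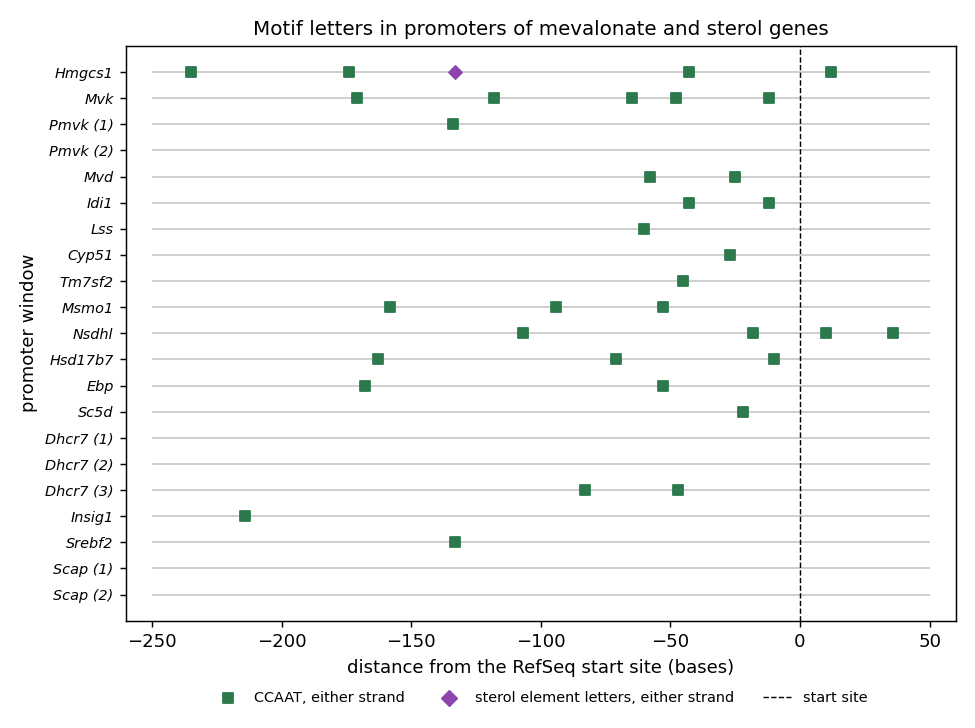
Positions of the letters CCAAT (green squares) and of the sterol element TCACNCCAC (purple diamond) on either strand in RefSeq promoter windows of the mevalonate and sterol genes, with the distance from the start site in bases on the horizontal axis and each grey line 1 window; numbers in brackets count the windows of a gene with several. Squares stand in at least 1 window of 16 of 17 genes, and the diamond only in that of Hmgcs1.

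Among the enzymes that lead to isoprenoids, Hmgcs1, which makes HMG-CoA, had log2 signals of 9.06, 8.78 and 8.92 on the keratinocyte-labelled arrays and of 10.12, 10.28 and 10.27 on the MEF-labelled ones, a 2.47-fold difference (limma, adjusted p = 9.03e-06). The kinase gene Mvk had 5.82, 6.13 and 6.25 against 6.57, 6.48 and 6.51, 1.37-fold higher on the MEF-labelled arrays (limma, adjusted p = 0.00942). It was the smallest change among the enzymes of the list and lay close to background, above it on 3 and 2 arrays. Pmvk, the next kinase, had 4.87, 5.51 and 5.13 on the keratinocyte-labelled arrays, not above background on any of them, and 6.43, 6.48 and 6.67 on the MEF-labelled ones, above background on 2, so that it was at least 1.77-fold higher there (limma, adjusted p = 9.98e-05). Mvd, the decarboxylase that yields isopentenyl diphosphate, had 6.52, 6.65 and 6.72 against 8.16, 8.19 and 8.57, 3.19-fold higher on the MEF-labelled arrays (limma, adjusted p = 7.10e-06). Idi1, the isomerase that follows, differed most: its brighter probe set had 7.84, 7.71 and 8.01 against 9.93, 10.07 and 9.92, a log2 difference of -2.12 ± 0.11 (SE), or 4.35-fold (limma, adjusted p = 4.54e-07). Its other probe set gave 4.29-fold, so that both probe sets of Idi1 placed it higher on the MEF-labelled arrays by similar amounts. Fdps, which joins isoprenoids into farnesyl diphosphate, was 1.86-fold higher there, with 9.17 ± 0.07 against 8.27 ± 0.13 (SD, n = 3; limma, adjusted p = 6.41e-05).

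Farnesyl diphosphate is committed to sterols by Fdft1, squalene synthase, and both of its probe sets were higher on the MEF-labelled arrays, by 2.14-fold and 2.59-fold. Sqle, a rate-limiting oxygenase, had 8.42, 8.16 and 8.27 against 9.01, 9.13 and 9.16, 1.76-fold higher on the MEF-labelled arrays (limma, adjusted p = 0.000132). Lss, which closes the rings to lanosterol, had 7.46, 7.22 and 7.23 against 8.99, 9.01 and 9.16, and at 3.36-fold it differed more than either enzyme before it in the route (limma, adjusted p = 1.39e-06); whether these fold differences differ from each other was not tested. The lanosterol demethylase gene Cyp51 was 1.86-fold higher on the MEF-labelled arrays, with 9.13 ± 0.10 against 8.23 ± 0.15 (SD, n = 3).

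The enzymes that turn lanosterol into cholesterol followed the same direction. Msmo1, which oxidises the C4 methyl groups, was the brightest sterol probe set, with 10.17, 10.03 and 10.07 on the keratinocyte-labelled arrays and 11.85, 11.90 and 11.86 on the MEF-labelled ones, 3.43-fold apart (limma, adjusted p = 3.87e-07). Nsdhl, which acts with Msmo1 on those groups, had 8.02, 8.08 and 8.02 against 9.69, 9.76 and 9.72, or 3.21-fold (limma, adjusted p = 4.12e-07). Their partner Hsd17b7 was 2.04-fold higher on the MEF-labelled arrays, with 8.62 ± 0.04 against 7.59 ± 0.18 (SD, n = 3). For these 3 genes the replicates of a label lay closer together than the labels did. The reductase gene Tm7sf2 was 2.81-fold higher on the MEF-labelled arrays, with 7.49 ± 0.09 against 6.00 ± 0.13 (SD, n = 3), and the isomerase gene Ebp 2.96-fold, with 7.78, 7.54 and 7.99 against 6.14, 6.19 and 6.27. Sc5d, the desaturase of the next step, was 1.93-fold higher there. The groups of these 3 genes did not overlap, nor did those of 78.4% of all genes. Dhcr7, which catalyses the last reduction to cholesterol, had 6.88, 6.90 and 6.87 against 8.52, 8.61 and 8.68, 3.29-fold higher on the MEF-labelled arrays (limma, adjusted p = 4.78e-07).

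The 3 regulators rose by 1.28-fold to 2.53-fold on the MEF-labelled arrays. Scap, the escort, had 7.67, 7.73 and 7.70 on the keratinocyte-labelled arrays and 9.07, 8.99 and 9.06 on the MEF-labelled ones, 2.53-fold higher on the latter (limma, adjusted p = 1.74e-06). Srebf2, the transcription factor, had 8.73, 8.90 and 8.82 against 9.45, 9.38 and 9.46, or 1.53-fold (limma, adjusted p = 0.000335). Insig1, itself a target of the pathway, had 8.84, 8.54 and 8.74 against 8.98, 9.04 and 9.17, the smallest difference of the list at 1.28-fold (limma, adjusted p = 0.0165). The groups of the 3 regulators did not overlap, with Insig1 the closest to doing so, and nor did those of 78.4% of all genes. Without keratinocytes replicate 2 or MEFs replicate 3 Insig1 no longer passed (limma, adjusted p = 0.0531 and 0.0664), and 19 of 20 sterol genes did; with each array centred on its median it did not pass either (adjusted p = 0.0620).

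**Figure D2:**
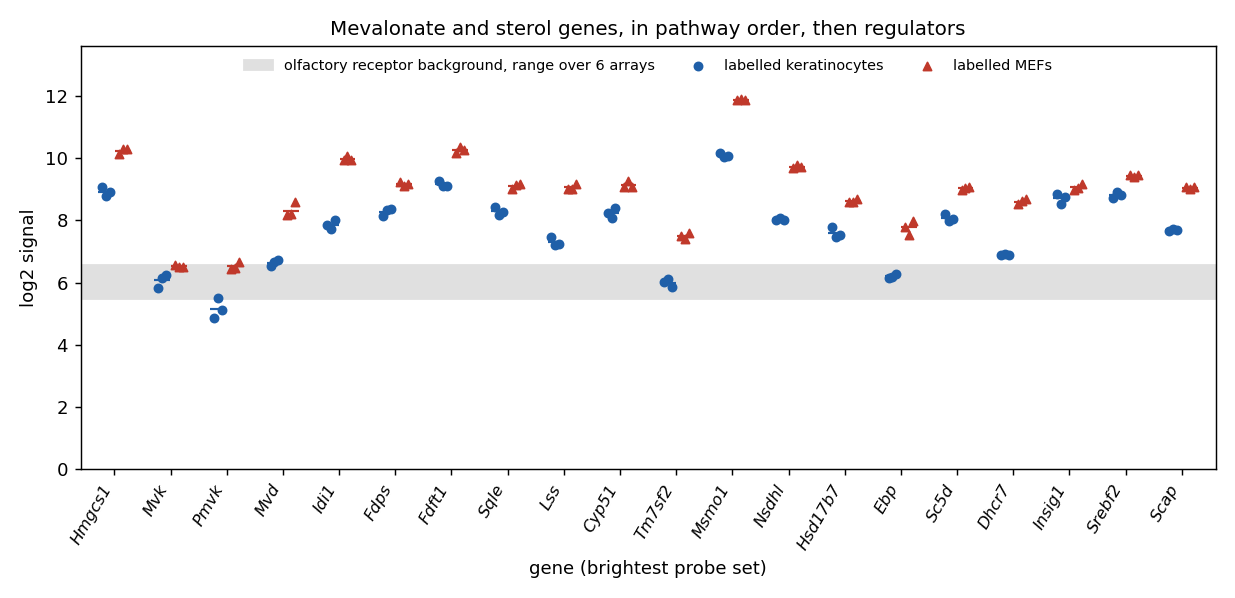
Log2 signal (vertical axis) of the 20 measured mevalonate and sterol genes, enzymes in the order of the pathway and then Insig1, Srebf2 and Scap, on the 3 keratinocyte-labelled arrays (blue circles) and the 3 labelled MEFs (red triangles), with short lines for group means and a grey band for the range of the background level over the 6 arrays. For every gene the red triangles lie above the blue circles, from 1.28-fold for Insig1 to 4.35-fold for Idi1.

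Genes that bring in, release or control sterols outside the route were called in both directions, in counts that stand beside 32.9% and 41.7% of all genes. Of 19 such genes listed, 10 were measured, 5 were higher on the keratinocyte-labelled arrays, 3 were higher on the MEF-labelled ones and 2 did not pass, with a median log2 difference of 0.30. Stard4, a carrier of cholesterol between membranes, moved with the enzymes: it had 6.34, 5.99 and 6.36 against 8.20, 8.36 and 8.51, 4.36-fold higher on the MEF-labelled arrays (limma, adjusted p = 1.83e-06). Lbr, a second enzyme for the step of Tm7sf2, was 1.53-fold higher there. Ggps1, which leads farnesyl diphosphate to geranylgeranyl groups, was 1.19-fold higher there (limma, adjusted p = 0.0470), and did not pass when any array other tha keratinocytes replicate 1 was left out (adjusted p from 0.0505 to 0.146). The other way went Mylip, the ligase that removes lipoprotein receptors, with 7.86, 7.74 and 7.97 on the keratinocyte-labelled arrays and 3.25, 3.40 and 3.65, not above background, on the MEF-labelled ones, at least 2.78-fold below the former (limma, adjusted p = 1.62e-08). Lipa, the lysosomal lipase that frees cholesterol from its esters, was 2.64-fold higher on the keratinocyte-labelled arrays, and Abca1, a cholesterol exporter, passed in the same direction with 5.26 ± 0.26 against 3.25 ± 0.25 (SD, n = 3) but was above background on no array, so no fold is given.

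Of the fatty acid genes 8 of 12 were higher on the MEF-labelled arrays, compared with 41.7% of all genes, 3 of 12 were higher on the keratinocyte-labelled ones, compared with 32.9%, and Scd1 did not pass. Their median log2 difference was -0.59, also with the 1 gene below background at its bound. By a 2-fold minimum on the measured difference 2 of 12, Elovl4 and Elovl7, were higher on the MEF-labelled arrays (14.4% of all genes) and 0 of 12 on the keratinocyte-labelled ones (14.1% of all genes), and the bound of Elovl7 also passed 2-fold. The 3 enzymes that make palmitate were higher on the MEF-labelled arrays by 1.48-fold to 1.90-fold. Acly, which splits citrate into acetyl-CoA, had 8.84, 8.87 and 8.95 against 9.84, 9.83 and 9.77, 1.90-fold higher on the MEF-labelled arrays (limma, adjusted p = 1.91e-05). Fasn, the fatty acid synthase, had 8.43, 8.43 and 8.55 against 9.42, 9.20 and 9.42, or 1.83-fold (limma, adjusted p = 7.35e-05). The carboxylase gene Acaca was 1.48-fold higher on the MEF-labelled arrays with its brighter probe set and 1.60-fold with the other, the latter above background on 2 of those arrays. None of the 3 had overlapping groups, and neither did 78.4% of all genes.

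Of the 2 Scd genes, Scd2 passed and Scd1 did not. Scd1, a stearoyl-CoA desaturase, had 9.22, 9.10 and 9.11 on the keratinocyte-labelled arrays and 9.14, 9.30 and 9.23 on the MEF-labelled ones, overlapping groups with a log2 difference of -0.08 ± 0.09 (SE; limma, adjusted p = 0.434) whose sign turned with median centring or quantile normalization. Scd2, its close relative, had 11.07, 11.06 and 11.01 against 11.69, 11.64 and 11.65, 1.53-fold higher on the MEF-labelled arrays (limma, adjusted p = 0.000199). The difference between the changes of Scd1 and Scd2 was not tested, and neither was hybridisation of 1 transcript to probes of the other. In the polyunsaturated route, where an elongation by Elovl5 lies between both desaturations, Fads2, the first desaturase, had 9.51, 9.56 and 9.66 against 10.42, 10.43 and 10.55, 1.85-fold higher on the MEF-labelled arrays, whereas Fads1, the later one, had 10.02, 10.10 and 10.02 against 9.63, 9.70 and 9.75, 1.28-fold higher on the keratinocyte-labelled ones (limma, adjusted p = 4.07e-05 and 0.00580). The groups of Fads1 and of Fads2 did not overlap, nor did those of 78.4% of all genes.

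Elovl7, which lengthens saturated and monounsaturated chains, had 3.40, 3.06 and 3.34 on the keratinocyte-labelled arrays, below background on each, and 7.32, 7.40 and 7.43 on the MEF-labelled ones, at least 3.21-fold higher (limma, adjusted p = 1.46e-08). Elovl4, which makes the ultra-long chains of barrier ceramides, had 6.03, 5.30 and 5.96 against 7.51, 7.80 and 7.80, 3.83-fold higher on the MEF-labelled arrays (limma, adjusted p = 3.41e-05); keratinocytes replicate 2 was the lowest and the only one of the 6 arrays not above background. Elovl6, which turns palmitate into stearate, was 1.35-fold higher on the MEF-labelled arrays, with 8.45 ± 0.11 against 8.02 ± 0.12 (SD, n = 3). Against these, Elovl1, an elongase of very long saturated chains, had 9.09, 9.08 and 9.08 on the keratinocyte-labelled arrays and 8.12, 8.11 and 8.15 on the MEF-labelled ones, 1.94-fold higher on the former (limma, adjusted p = 1.18e-05). Elovl5, which lengthens polyunsaturated chains, was 1.36-fold higher there as well, with 9.19 ± 0.08 against 8.74 ± 0.05 (SD, n = 3). Of 5 elongase genes 3 were thus higher on the arrays with high Cdh1, compared with 41.7% of all genes. The other 2 were higher on those with high Vim, compared with 32.9%.

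**Figure D3:**
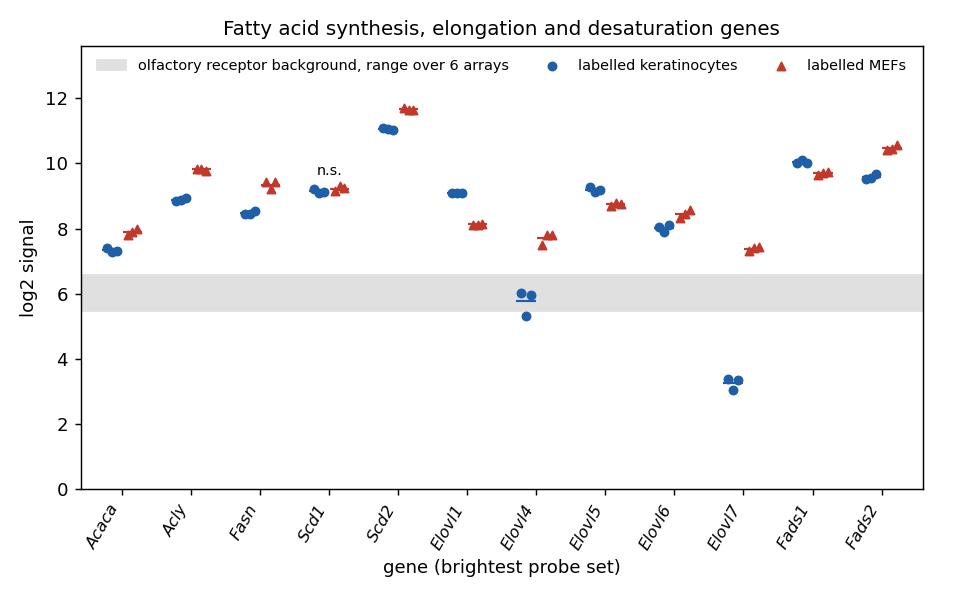
Log2 signal (vertical axis) of the 12 fatty acid genes on the 3 keratinocyte-labelled arrays (blue circles) and the 3 labelled MEFs (red triangles), with short lines for group means, a grey band for the range of the background level over the 6 arrays and n.s. for a gene that did not pass. Elovl7 lies below the band on the keratinocyte-labelled arrays, and Elovl1, Elovl5 and Fads1 are the genes with circles above triangles.

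Of 24 further genes of fatty acid elongation, activation and esterification 17 were measured, and 4 of them did not pass. Of the 17, 10 were higher on the MEF-labelled arrays, compared with 41.7% of all genes, and 3 on the keratinocyte-labelled ones, compared with 32.9%. The median log2 difference of the 17 was -0.50. Acss2, which makes acetyl-CoA from acetate, had 5.78, 5.85 and 5.92 against 7.96, 8.00 and 8.02, 4.41-fold higher on the MEF-labelled arrays (limma, adjusted p = 1.26e-07). It was above background on 2 of the keratinocyte-labelled arrays. Acsl5, an acyl-CoA synthetase, was 3.20-fold and Agpat2, an enzyme of glycerolipid assembly, 2.24-fold higher on the MEF-labelled arrays. The dehydratase gene of elongation Hacd1 went the other way. Its brighter probe set was at least 2.45-fold higher on the keratinocyte-labelled arrays, with 7.68 ± 0.14 against 5.61 ± 0.05 (SD, n = 3; limma, adjusted p = 3.87e-07). The dimmer one, with 6.45 ± 0.27 against 4.86 ± 0.16, was at least 1.05-fold higher on the same arrays. Me1, the malic enzyme that supplies NADPH, was 2.12-fold higher there too. The triglyceride enzyme gene Dgat2 passed in that direction with overlapping groups, 5.58 ± 0.18 against 5.23 ± 0.17 (SD, n = 3; limma, adjusted p = 0.0376), and did not pass without keratinocytes replicate 1 or 3 or without MEFs replicate 1 or 2 (adjusted p = 0.0668, 0.119, 0.114 and 0.107). Dgat2 was above background on 1 keratinocyte-labelled array and on no MEF-labelled one, and no fold is given.

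Sphingolipid genes went both ways in equal number: 5 of 11 were higher on the keratinocyte-labelled arrays, 5 of 11 were higher on the MEF-labelled ones, and Degs1 did not pass. Their median log2 difference was -0.14, beside -0.12 over all genes, and the counts stand beside 32.9% and 41.7% of all genes called in these directions. By a 2-fold minimum on the measured difference 2 of 11, Cers4 and Ugcg, were higher on the keratinocyte-labelled arrays, compared with 14.1% of all genes. By the same minimum 1 of 11, Cers3, was higher on the MEF-labelled ones, compared with 14.4%. At the bounds 1 of 11, Ugcg, reached 2-fold towards the keratinocyte-labelled arrays, compared with 4.94% of all genes, and Cers4 did not. Towards the MEF-labelled ones 1 of 11, Cers3, reached 2-fold at its bound, compared with 9.09%. Cers3, which joins ultra-long acyl chains to sphingoid bases for the skin barrier, had 1.07, 1.70 and 2.18 on the keratinocyte-labelled arrays and 9.08, 9.07 and 9.06 on the MEF-labelled ones, a log2 difference of -7.42 ± 0.24 (SE) as measured and at least 10.3-fold against background (limma, adjusted p = 3.63e-08). Cers4, which uses long and very long acyl chains, had 7.11, 6.94 and 6.89 on the keratinocyte-labelled arrays and 3.11, 3.08 and 2.88 on the MEF-labelled ones, at least 1.51-fold higher on the former (limma, adjusted p = 1.37e-08). The Cers3 signal was below background on each keratinocyte-labelled array and the Cers4 signal below it on each MEF-labelled array, so that each synthase was above background in 1 group only.

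The other ceramide synthases had smaller measured differences. Cers2, which makes ceramides of very long chains in most tissues, had 9.17, 9.16 and 9.25 on the keratinocyte-labelled arrays and 8.78, 8.80 and 8.73 on the MEF-labelled ones, 1.34-fold higher on the former (limma, adjusted p = 0.00192). Cers6, which prefers palmitoyl-CoA, had 7.93, 7.83 and 7.98 against 8.70, 8.75 and 8.78, 1.77-fold higher on the MEF-labelled arrays (limma, adjusted p = 5.06e-05). Cers5, of similar preference, went the other way at 1.32-fold, with 8.00, 7.49 and 7.68 against 7.18, 7.38 and 7.42 (limma, adjusted p = 0.0337). The groups of Cers2 and Cers6 were well apart, whereas the Cers5 groups nearly met, and the Cers5 call was lost when any array other tha keratinocytes replicate 2 was left out (adjusted p from 0.0507 to 0.104). Of the 5 ceramide synthase genes measured 3, Cers5 among them, were thus called higher on the keratinocyte-labelled arrays, compared with 32.9% of all genes. The other 2 were called higher on the MEF-labelled ones, compared with 41.7%.

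Upstream of the synthases, serine palmitoyltransferase, the first enzyme of sphingolipid synthesis, showed small differences in both subunit genes. Sptlc1 was 1.27-fold higher on the MEF-labelled arrays, with 7.62, 7.25 and 7.32 against 7.62, 7.79 and 7.81, and keratinocytes replicate 1 reached the lowest MEF-labelled array. Sptlc2 was 1.26-fold higher there, with 7.48, 7.11 and 7.39 against 7.60, 7.62 and 7.76 (limma, adjusted p = 0.0300 for Sptlc1 and 0.0309 for Sptlc2). Neither passed with median centring (adjusted p = 0.117 and 0.114), quantile normalization (0.0844 and 0.0858) or without keratinocytes replicate 2 (0.0942 and 0.0920), MEFs replicate 2 (0.0862 and 0.0608) or MEFs replicate 3 (0.0948 and 0.104); Sptlc1 also did not pass without keratinocytes replicate 3 (0.0849). Degs1, the desaturase that completes ceramide, did not pass, with 8.60 ± 0.11 against 8.74 ± 0.10 (SD, n = 3) and overlapping groups.

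Of the enzymes that use ceramide, Ugcg, which adds glucose, had 8.31, 8.08 and 8.17 on the keratinocyte-labelled arrays and 6.28, 6.43 and 6.33 on the MEF-labelled ones, higher on the former by 1.84 ± 0.10 (SE) on the log2 scale as measured (limma, adjusted p = 6.95e-07). It was above background on 1 MEF-labelled array, so no exact fold is given. The sphingomyelin synthase gene Sgms1 was 1.43-fold higher on the MEF-labelled arrays, with 7.02 ± 0.13 against 6.50 ± 0.17 (SD, n = 3; limma, adjusted p = 0.00406). Sgms2, its relative at the plasma membrane, passed the other way with 5.38, 5.17 and 5.55 against 5.08, 5.10 and 4.80 (limma, adjusted p = 0.0285), but it was above background on 1 of the 6 arrays, so no fold is given, and it did not pass without keratinocytes replicate 1 or 3 or MEFs replicate 3 (adjusted p = 0.0605, 0.0917 and 0.106). With any 1 of those 3 arrays left out, 3 rather than 5 sphingolipid genes were higher on the keratinocyte-labelled arrays, and without keratinocytes replicate 2, MEFs replicate 2 or MEFs replicate 3, 3 rather than 5 were higher on the MEF-labelled ones.

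**Figure D4:**
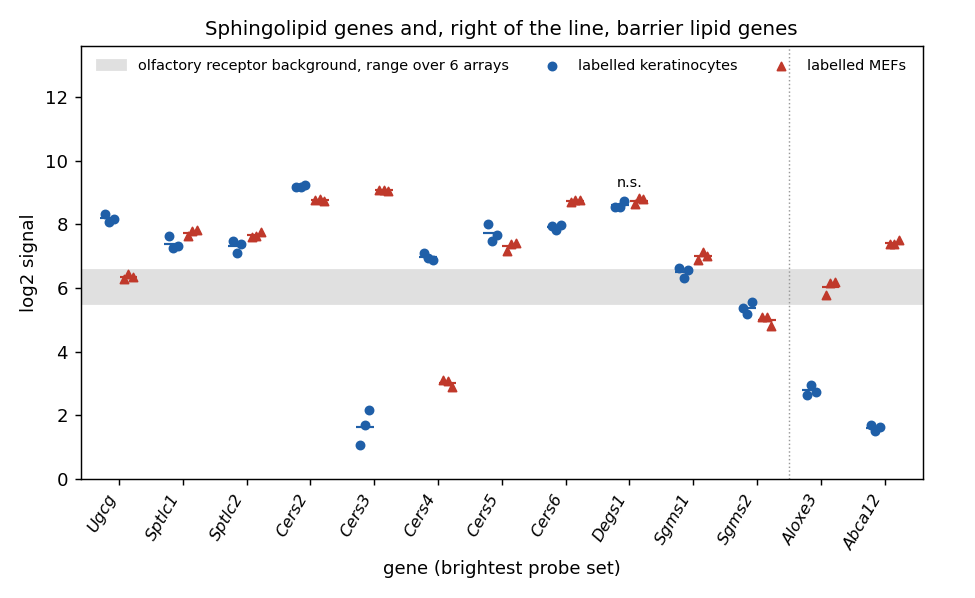
Log2 signal (vertical axis) of the 11 measured sphingolipid genes and, right of the dotted line, of the 2 measured barrier lipid genes on the 3 keratinocyte-labelled arrays (blue circles) and the 3 labelled MEFs (red triangles), with short lines for group means, a grey band for the range of the background level over the 6 arrays and n.s. for a gene that did not pass. Cers3 and Abca12 fall below 2.2 and Cers4 near 3 in the group where they were not above background.

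Of 25 other sphingolipid enzymes and regulators 16 were measured, and 2 of them did not pass. Of the 16, 6 were higher on the keratinocyte-labelled arrays, compared with 32.9% of all genes, and 8 on the MEF-labelled ones, compared with 41.7%. Their median log2 difference was -0.40 as measured, but 0.29 over the 10 genes whose brighter group was above background on at least 1 array, with those below it in the other group at their bound, so the sign of the median rests on genes near or below background. Smpd1, the acid sphingomyelinase, was 2.14-fold higher on the keratinocyte-labelled arrays, with 7.93 ± 0.10 against 6.83 ± 0.12 (SD, n = 3; limma, adjusted p = 2.28e-05). B4galt6, which adds galactose to the product of Ugcg, had 6.53, 6.83 and 6.72 on the keratinocyte-labelled arrays and 2.00, 1.71 and 0.46 on the MEF-labelled ones, at least 1.24-fold higher on the former (limma, adjusted p = 2.47e-06). Cert1, the ceramide transfer protein, was 1.45-fold and Sgpl1, the lyase that ends the pathway, 1.26-fold higher on the same arrays. Sphk2, a sphingosine kinase above background on 1 MEF-labelled array, passed in the same direction with a log2 difference of 0.36, but not without keratinocytes replicate 2 or 3 or MEFs replicate 1 or 2 (adjusted p = 0.0679, 0.0562, 0.0601 and 0.0767). Ormdl3, which restrains serine palmitoyltransferase, passed in that direction too, with 6.04 ± 0.08 against 5.43 ± 0.12 (SD, n = 3). Ormdl3 was above background on no MEF-labelled array, and no fold is given. Its relative Ormdl2 and the ceramidase gene Acer2 passed the other way, with 5.64 ± 0.31 against 4.26 ± 0.37 for Ormdl2 and 4.70 ± 0.23 against 3.94 ± 0.18 for Acer2 (SD, n = 3), and were above background on no array.

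Both epidermal barrier lipid genes measured were higher on the MEF-labelled arrays, as were 41.7% of all genes. Abca12, the lipid transporter of lamellar granules, had 1.70, 1.50 and 1.64 on the keratinocyte-labelled arrays and 7.37, 7.37 and 7.52 on the MEF-labelled ones, a log2 difference of -5.81 ± 0.10 (SE) as measured and at least 3.30-fold against background (limma, adjusted p = 2.58e-09). Aloxe3, which acts on the product of Alox12b, had 2.66, 2.95 and 2.75 against 5.78, 6.16 and 6.17, a log2 difference of -3.25 ± 0.14 (SE) as measured (limma, adjusted p = 1.50e-07). Abca12 was above background on the 3 MEF-labelled arrays and Aloxe3 on 1 of them, and neither was on a keratinocyte-labelled array, so no fold is given for Aloxe3. The median log2 difference of the pair was -4.53 as measured.

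Of 14 other barrier lipid genes 5 were measured and 4 were higher on the MEF-labelled arrays, compared with 41.7% of all genes. Nipal4, a transporter needed for normal barrier formation, had 5.53, 5.22 and 5.56 against 9.37, 9.37 and 9.43, a log2 difference of -3.95 ± 0.11 (SE) as measured (limma, adjusted p = 1.76e-08). It was above background on 1 of the keratinocyte-labelled arrays, so no exact fold is given. Sult2b1, which makes cholesterol sulfate, had 3.50, 3.93 and 3.60 against 7.61, 7.44 and 7.69, at least 3.68-fold higher there (limma, adjusted p = 4.83e-08). Tgm1, a transglutaminase of the cornified envelope, and Fa2h, which hydroxylates fatty acids of ceramides, passed in the same direction with means of 5.48 against 3.30 and of 4.05 against 2.95, all below background. Abhd5, a cofactor of lipases, did not pass, with 7.51 ± 0.07 against 7.33 ± 0.07 (SD, n = 3; limma, adjusted p = 0.0991). The Cdh1 and Krt5 signals that run with these barrier genes are given above, and their part in the differences was not tested.

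Over the 45 genes 35 were higher on the MEF-labelled arrays, compared with 41.7% of all genes, and 8 on the keratinocyte-labelled ones, compared with 32.9%. The other 2, Scd1 and Degs1, did not pass, while 74.5% of all genes passed in either direction. By a 2-fold minimum on the measured difference 18 were higher on the MEF-labelled arrays and 2 on the keratinocyte-labelled ones. Over all genes 14.4% and 14.1% were, or 28.4% in either direction. At the bounds the counts were 16 and 1, without Pmvk, Aloxe3 and Cers4. They stand beside 9.09% and 4.94% of all genes, or 14.0% in either direction. The median log2 difference of the 45 was -0.89. Of the 45, 35 were above background on all 6 arrays.

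**Figure D5:**
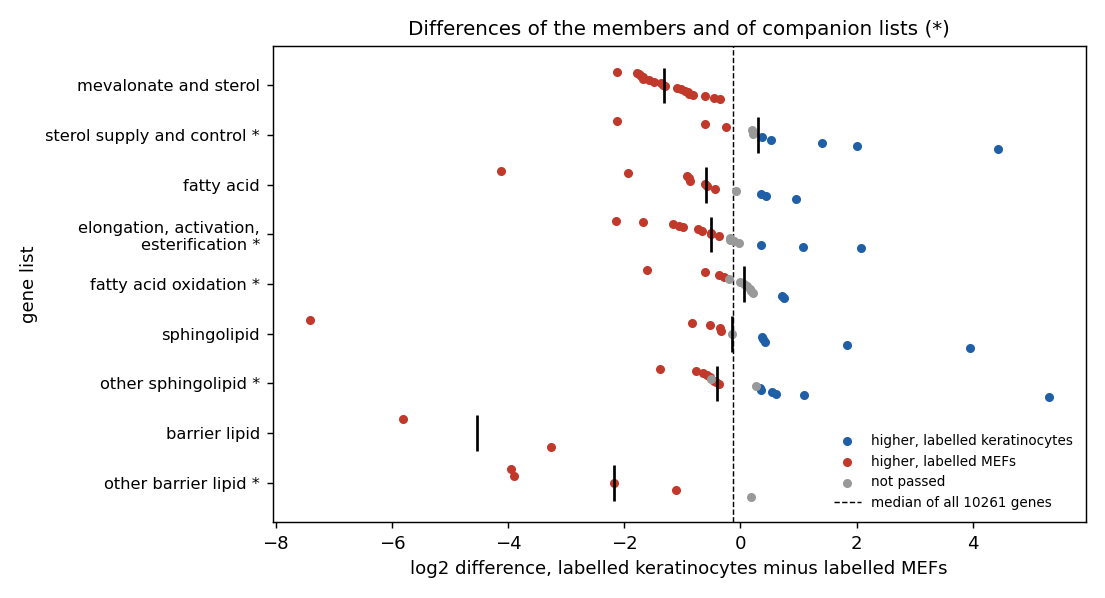
Log2 difference, labelled keratinocytes minus labelled MEFs (horizontal axis), of each measured gene in the 4 member lists and in 5 lists of related genes, marked with an asterisk; blue points passed with higher signals on the keratinocyte-labelled arrays, red points with higher signals on the MEF-labelled arrays and grey points did not pass, black bars are list medians and the dashed line is the median of all genes at -0.12. The sterol points lie left of 0 without exception, from -2.12 to -0.36, while the sphingolipid points spread from -7.42 to 3.96.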

How the data were processed

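RNA from 3 cultures labelled keratinocytes and 3 labelled MEFs was hybridised to MoGene-1_0-st arrays. The deposited values are log2 signals, which the range of the values bears out: by their methods the authors normalized the arrays by RMA with the Bioconductor package oligo (version 1.46.0 in the submitters' processing notes). Arrays carry no read depth, and their number, 3 a group, limits the precision. A table of platform annotation paired 11288 of 15648 probe sets with 1 symbol, 645 with several, and gave no entry for 3715, which stay unnamed here, and symbols were updated through RefSeq gene IDs (11274 found). Genes were represented by their brightest probe set (572 had several). Every column of sample values was used.

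The groups were compared with limma 3.58.1 (lmFit and eBayes, R 4.3.3), with Benjamini-Hochberg adjustment over the 11288 probe sets and a threshold of 0.05; tables and motif searches used Python 3.11.15. The methods state limma and Student's t-test, and the latter was an alternative. The other alternatives concerned centring, normalization, filters on dim probe sets, the choice of probe set, the moderation, a minimum difference, the replicate number and single arrays. Replicate numbers did not pair the arrays (correlations of deviations -0.23, -0.21 and -0.03). Array medians lay between 6.16 and 6.31, and arrays correlated at 0.985 to 0.994 within a label and at 0.629 to 0.647 across labels. In data simulated over 11288 probe sets 200 were changed, whereas 74.5% of all genes were called in the arrays. There 91.0% of probe sets changed by 1 on the log2 scale and 99.0% of those changed by 2 were called. Of the simulated calls 5.0% were false. Whether these shares hold with as many changed genes as were called in the arrays was not tested.

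Members, lists of related genes and markers were chosen with earlier results of these data known. Named were every member, up to 4 related genes of each list with the largest differences past the threshold and those past it against most of their list, and the marker lists.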

Additional observations from a re-analysis of the deposited data

How the results depend on the processing

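Of the 45 members 39 kept their call under every alternative in which they were tested, except the minimum log2 difference of 1; the others were Insig1, Sptlc1, Sptlc2, Cers5, Sgms2 and Scd1, whose difference of -0.08 became 0.0477 with median centring and 0.00217 with quantile normalization, passing in neither. Median centring moved the median of all genes from -0.12 to 0.01, and the share of calls higher on the MEF-labelled arrays from 55.9% to 47.8%, and quantile normalization moved them to -0.09 and 52.9%. With either, 3 instead of 5 sphingolipid genes were higher on the MEF-labelled arrays, 1 instead of 0 other barrier genes and 6 instead of 2 fatty acid oxidation genes on the keratinocyte-labelled ones, and with median centring 2 instead of 4 oxidation genes on the MEF-labelled ones.

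The minimum difference, taken as measured, left 13 sterol, 2 fatty acid, 1 sphingolipid and 18 of all members higher on the MEF-labelled arrays, and 0 fatty acid, 2 sphingolipid and 2 of all members on the keratinocyte-labelled ones. In the related lists it left 3 and 1 for sterol supply, 2 and 1 for sphingolipids and 0 and 1 for oxidation (labelled keratinocytes first), and 4 for elongation and activation on the MEF-labelled arrays. The methods' t-test, unadjusted or after Benjamini-Hochberg, gave 3 sphingolipid genes in each direction, and unadjusted 1 other barrier gene and 4 oxidation genes on the keratinocyte-labelled arrays. Leaving out the 25% of probe sets with the lowest means left 0 barrier members and 2 other barrier genes on the MEF-labelled arrays, and requiring signals above background on 3 or more arrays left 1 and 2, with 2 other sphingolipid genes; here fewer genes were tested. Other causes were not tested.

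With 1 array left out, genes higher on the MEF-labelled arrays numbered 19 to 20 for sterols, 8 for fatty acids, 3 to 5 for sphingolipids, 2 for the barrier and 32 to 35 for all members, and on the keratinocyte-labelled ones 0, 3, 3 to 5, 0 and 6 to 8. The related lists gave 2 to 3 (sterol supply), 10 to 11 (elongation and activation), 7 to 8 (sphingolipids), 4 (barrier) and 3 to 4 (oxidation) on the former, and 4 to 5, 2 to 3, 5 to 6, 0 and 2 on the latter.

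With the replicate number as a block, 3 instead of 5 sphingolipid genes were higher on the keratinocyte-labelled arrays. Of all genes 3117 were then higher on the keratinocyte-labelled arrays and 3942 on the MEF-labelled ones, compared with 3371 and 4278. Same-numbered arrays share only a number, and no array correlated best, in its deviations, with its own number in the other group. Vomeronasal and taste receptor probe sets, the planned wider background, added none to the 10 olfactory ones. Nothing below background can be ordered, and the labels as read against the markers limit every direction.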

Other observations

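Genes of fatty acid oxidation, the route opposite to synthesis, went both ways or did not pass. Of 17 such genes listed 13 were measured, with a median log2 difference of 0.06, and 7 of them did not pass. Of the 13, 2 were higher on the keratinocyte-labelled arrays, compared with 32.9% of all genes, and 4 on the MEF-labelled ones, compared with 41.7%. Cpt1a, which admits long chains to mitochondria, had 7.37, 7.27 and 7.41 on the keratinocyte-labelled arrays and 6.53, 6.64 and 6.62 on the MEF-labelled ones, 1.69-fold higher on the former (limma, adjusted p = 9.39e-05), and Acadm, a dehydrogenase of medium chains, was 1.63-fold higher there. Ppard, a nuclear receptor that drives oxidation genes, went the other way with 6.41, 6.39 and 6.39 against 7.95, 7.97 and 8.12, or 3.07-fold (limma, adjusted p = 8.23e-07). Eci1, an isomerase of the route, was 1.52-fold higher on the MEF-labelled arrays. The groups did not overlap for these 4 genes, nor for 78.4% of all genes.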
